A study of Petromyzon marinus with 17 samples.

Results

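Non-methylated islands (NMIs) of adult sea lamprey (Petromyzon marinus) brain were compared with those of peripheral blood mononuclear cells (PBMCs). The comparison used the 2 brain and the 2 PBMC libraries made by BioCAP, among 12 NMI libraries in the series. In BioCAP, sheared genomic DNA is captured with the CxxC domain of KDM2B, a zinc finger that holds on to CpG sites without a methyl group, and is then sequenced. For each tissue, only bases that lay in an NMI in each replicate were kept. The brain and PBMC stretches were then merged wherever they overlapped by at least 1 bp or touched. This gave 135563 merged NMIs, compared with 183431 in the union of all 12 lists. A merged NMI with both tissues was called shared, and one with a single tissue was called brain-private or PBMC-private.

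All 4 libraries were labelled adult, and the study describes its adult animals as several years old. The animals were not treated, and no genotype is given for them. Brain is a mixture of neurons, glia and vessel cells, and PBMCs are a mixture of lymphocytes and monocytes. A difference between the tissues can therefore not be assigned to a cell type. The replicates are described as biological, with a male and a female fish for brain and only males for PBMCs. Which brain replicate is which sex, and whether any animal gave both tissues, is not given in these sources. Differences in sex or in sequence between animals can therefore not be told apart from differences between the tissues. The lists hold positions without gene names, so the tissue labels were not checked against marker genes. Muscle, sperm, day 1 embryos and day 2 embryos, with 2 libraries each, were used only as readouts that had not entered the classes.

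In most vertebrates studied, most CpG sites are methylated, and NMIs are the short stretches that escape. The study describes the lamprey as an exception, with intermediate methylation at most CpG sites in all the tissues it examined. In vertebrates at large, many NMIs lie at gene promoters and are kept free of methylation in most tissues, whereas others lie at enhancers or within genes and differ between cell types. Where the NMIs compared here lie relative to genes was not analysed. CxxC domain proteins such as KDM2B bind NMIs in the nucleus and take part in recruiting chromatin regulators. Lampreys also discard part of their germline genome from somatic cells during embryogenesis. Brain and PBMCs are both somatic, and the assembly to which the reads were aligned, petMar3, is of the germline genome.

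The brain lists were longer and their NMIs wider. Brain replicates 1 and 2 held 130672 and 141921 NMIs, against 115448 and 117044 in PBMC replicates 1 and 2. The median NMI was 540 and 564 bp wide in brain, against 448 and 496 bp in PBMCs. NMIs covered 94.8 and 109.9 Mb in brain, against 65.95 and 74.02 Mb in PBMCs. The tissues did not overlap in any of these measures. The mean differences, brain minus PBMC, were 20050.5 NMIs, 80 bp of median width and 32.4 Mb. In an exact two-sided permutation test (n = 2 each) all had p = 0.3333, the smallest value that 2 libraries against 2 allow, so that none could pass 0.05.

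The fold enrichment and p-value of an NMI together determine the pileup of fragments at its summit and the local background against which it was called. Solved in this way, with an agreement within 0.002 in −log10 p, 99.6% to 100% of the NMIs in the 4 lists gave whole numbers of fragments. The pileups had been multiplied by a scale factor of 1 and 0.841 in brain replicates 1 and 2, against 0.616 and 0.480 in PBMC replicates 1 and 2. Before scaling, the median summit held 46 and 73 fragments in brain, against 98 and 115 in PBMCs. After scaling, it held 46.0 and 61.4 in brain, against 60.4 and 55.2 in PBMCs. The median local background was 5.09 and 8 in brain, against 3.66 and 4 in PBMCs. The 4 lists therefore did not rest on the same threshold in fragments.

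The background values also showed which lists had been called in the same way. Brain replicates 1 and 2 had 2730 NMIs with the same summit position, and in 98.9% of them the ratio of the backgrounds took one of its 2 commonest values. PBMC replicate 1 and muscle replicate 1 shared 2086 summits, and 93.3% of the ratios took one of 2 values, 0.97 and 1. For PBMC replicate 1 and muscle replicate 2, the share was 96.4% of 2078 summits, and for PBMC replicate 2 it was 80.2% of 1654 and 74.8% of 1445 summits with muscle replicates 1 and 2. Between brain and PBMC libraries it was only 5.36% to 6.01% of 1026 to 1248 summits. The series includes an input library for brain and one for muscle but none for PBMCs. The PBMC and muscle lists thus carried the same local background up to a constant, and the brain lists carried another one. Which control entered each call is not given in the sources used here. Its part in the differences between brain and PBMC NMIs was not tested, and tissue and background cannot be told apart in the 4 lists.

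**Figure D1:**
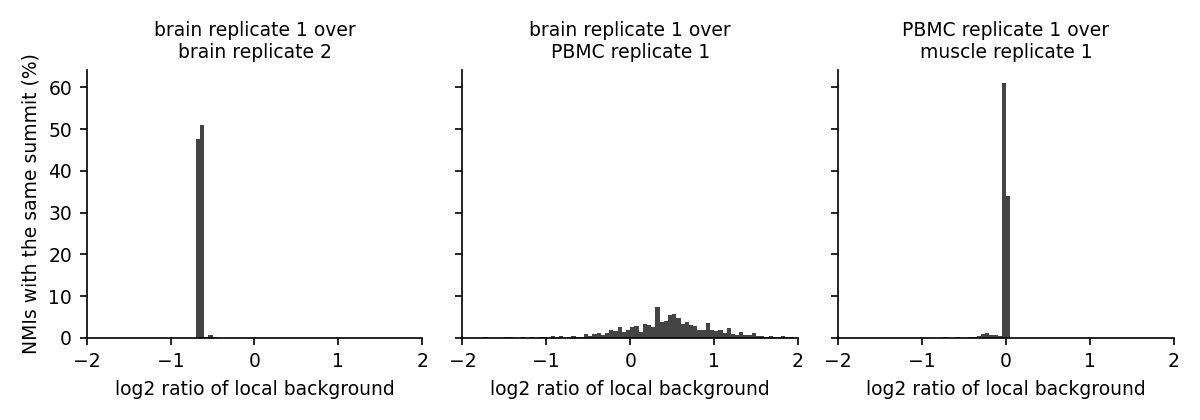
Ratio of the local background of 2 libraries at NMIs with the same summit position, on a log2 scale, as a percentage of such NMIs per bin of 0.05. The ratio was nearly constant between the 2 brain libraries and between PBMC replicate 1 and muscle replicate 1 (93.3% in 2 values), whereas it was spread widely between brain replicate 1 and PBMC replicate 1 (6.01%).

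Of the merged NMIs, 93387 were shared (68.9%), 33757 were brain-private (24.9%) and 8419 were PBMC-private (6.21%). Brain-private NMIs were thus 4.01 times as many as PBMC-private NMIs. With a single list for one tissue, the ratio was 9.18 without brain replicate 1 (5237 PBMC-private NMIs) and 2.32 without PBMC replicate 1. Shared NMIs covered 79.3 Mb, brain-private NMIs 12.9 Mb and PBMC-private NMIs 2.72 Mb. Seen from the single tissues, 73.7% of brain NMIs overlapped a PBMC NMI, and 92.4% of PBMC NMIs overlapped a brain NMI. By bases, 63.7% of brain NMI sequence lay in PBMC NMIs, and 90.6% of PBMC NMI sequence lay in brain NMIs.

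Most of the sequence found in brain only did not lie in brain-private NMIs. Such bases lay in both brain replicates but not in both PBMC replicates, so some may lie in an NMI of a single PBMC library. Most of this sequence lay inside shared NMIs, at their edges or between PBMC pieces, with 19.4 Mb inside shared NMIs compared with 12.9 Mb in brain-private NMIs. The corresponding values for PBMC-only sequence were 3.17 Mb and 2.72 Mb. For the bases common to both replicates, the difference was therefore in large part one in the called extent of the same islands.

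With equally long lists, the 115448 NMIs with the largest −log10 q were kept in each library. Of 122250 merged NMIs, 72% were shared (87961), 17% were brain-private (20763) and 11.1% were PBMC-private (13526). The ratio of brain-private to PBMC-private NMIs was then 1.54. With 50000 NMIs per library, the classes held 35661 shared, 9446 brain-private and 8064 PBMC-private NMIs, a ratio of 1.17. When the lists were instead made to cover equal bases, 2868 NMIs were brain-private and 39030 PBMC-private, so that the ratio turned round to 0.0735. As brain NMIs were wider, equal bases leave fewer brain NMIs in the lists, and those with the smallest −log10 q were removed first. At a minimum −log10 q of 10 the ratio was 1.77, and at a minimum fold enrichment of 5, a setting chosen after the data had been seen, it was 0.904. The ratio of private NMIs, and in 2 settings its direction, thus depended on how the lists were made comparable.

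A different picture was obtained when private NMIs had to be absent from both deposited lists of the other tissue. By this criterion, 25602 brain-private NMIs were left (75.8%), and 3991 PBMC-private NMIs (47.4%). Of the PBMC-private NMIs, 14.9% overlapped an NMI of brain replicate 1 and 37.8% an NMI of brain replicate 2, the library with the longest list. Of the brain-private NMIs, 8.26% overlapped an NMI of PBMC replicate 1 and 16.0% an NMI of PBMC replicate 2. Of the PBMC-private NMIs, 52.5% were found in exactly 1 brain library, compared with 24.1% of brain-private NMIs in exactly 1 PBMC library, and so were private only by the requirement for both replicates. With equally long lists and the same criterion, 15322 brain-private and 3942 PBMC-private NMIs were found, a ratio of 3.89. PBMC-private NMIs had to be absent from the longer brain lists and brain-private NMIs from the shorter PBMC lists, and the part of list length in these counts was not tested.

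The overlap between the libraries was also larger within a tissue than between tissues. The Jaccard index, the bases in both lists over the bases in either, was 0.771 for the brain replicates and 0.809 for the PBMC replicates. For the 4 pairs of a brain and a PBMC library it was 0.583 ± 0.0444 (SD, n = 4 pairs that share libraries). Within-tissue indices exceeded between-tissue indices by 0.207 on average, with p = 0.3333 in an exact one-sided permutation test, the smallest value possible here. With equally long lists, the between-tissue index was 0.596 ± 0.0376. With equal bases it was 0.5425, but the within-tissue indices were not computed for that setting. The index is limited where lists cover unequal bases, and the deposited lists covered 94.8 and 109.9 Mb in brain, against 65.95 and 74.02 Mb in PBMCs. Replicates of a tissue also rested on largely the same background, and the tissues on different ones. The part of coverage and background in the difference was not tested.

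Private NMIs were narrow. The median width was 314 bp for brain-private, 292 bp for PBMC-private and 662 bp for shared NMIs. Only 2.28% of brain-private and 0.380% of PBMC-private NMIs reached 1000 bp, compared with 26.7% of shared NMIs. Since a shared NMI is the union of the stretches of both tissues, part of its width comes from the way it was built. Shared NMIs made up 14.6% of the 23477 merged NMIs under 300 bp and 99.1% of the 4789 NMIs of 2000 bp or more. With equally long lists, 43.4% of merged NMIs under 300 bp were brain-private and 41.9% PBMC-private. In contrast, between 500 and 1000 bp, 11.3% were brain-private and 2.22% PBMC-private. Of the PBMC-private NMIs obtained with equally long lists, 38.6% (5226) overlapped NMIs of both deposited brain lists, compared with 0.901% of the brain-private NMIs and the deposited PBMC lists. The near equality of the narrow private NMIs therefore includes PBMC-private NMIs whose brain counterparts had been removed with the weaker part of the brain lists.

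**Figure D2:**
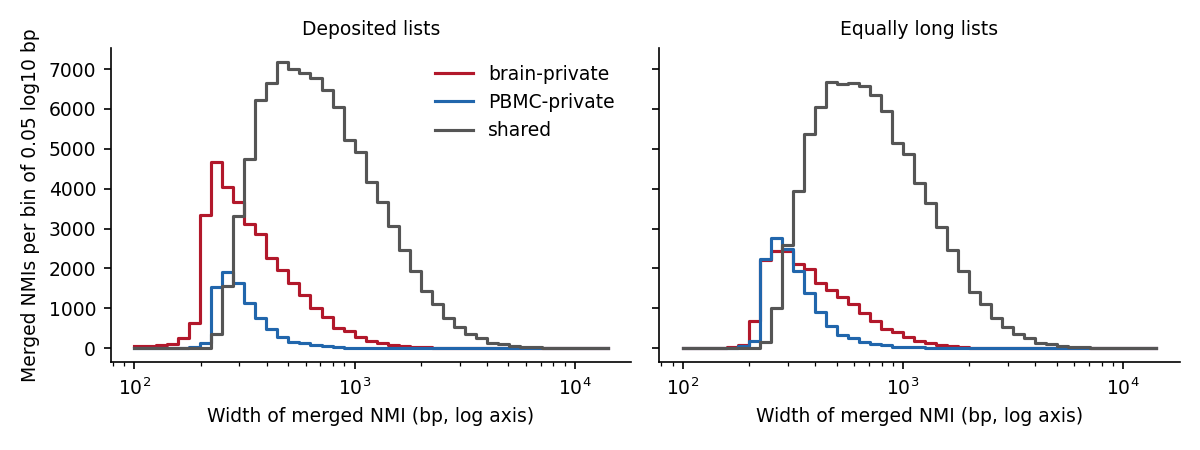
Number of merged NMIs per width bin (width in bp on a log axis) for brain-private, PBMC-private and shared NMIs, with the deposited lists (left) and equally long lists (right). Private NMIs peaked near 300 bp or below and shared NMIs near 500 bp, and with equally long lists the brain-private class kept a tail of wider NMIs (median 361 bp, compared with 301 bp for PBMC-private NMIs).

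Private NMIs were also among the weakest of their lists. In brain replicate 1, the median fold enrichment over the local background was 4.41 for brain-private and 10.2 for shared NMIs, and in brain replicate 2 it was 4.92 and 9.61. In PBMC replicate 1, it was 6.13 for PBMC-private and 15.1 for shared NMIs, and in PBMC replicate 2 it was 5.87 and 12.5. Each pair of values belongs to one list, as fold enrichments from different lists rest on different backgrounds. The direction (private below shared) was the same in all 4 lists.

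Each list was divided into 10 bins of equal size by −log10 q, and NMIs found in both replicates were followed. The share without an NMI of the other tissue decreased steadily with strength. It was 75.4% and 73.6% in the weakest bin of brain replicates 1 and 2, against 25.3% and 29.0% in the weakest bin of PBMC replicates 1 and 2. In bin 5 from the weakest, it was 23.0% and 31.6% in brain, against 5.89% and 6.19% in PBMCs. In the strongest bin, it was 0.436% and 0.606% in brain, against 0.0520% and 0.0342% in PBMCs. An NMI of the strongest bin in one tissue was therefore almost always an NMI in the other tissue as well. In every bin, both brain libraries lay above both PBMC libraries. The bins were made from the deposited lists. Brain NMIs were thus looked up in the shorter PBMC lists and PBMC NMIs in the longer brain lists. The part of list length in this order was not tested.

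**Figure D3:**
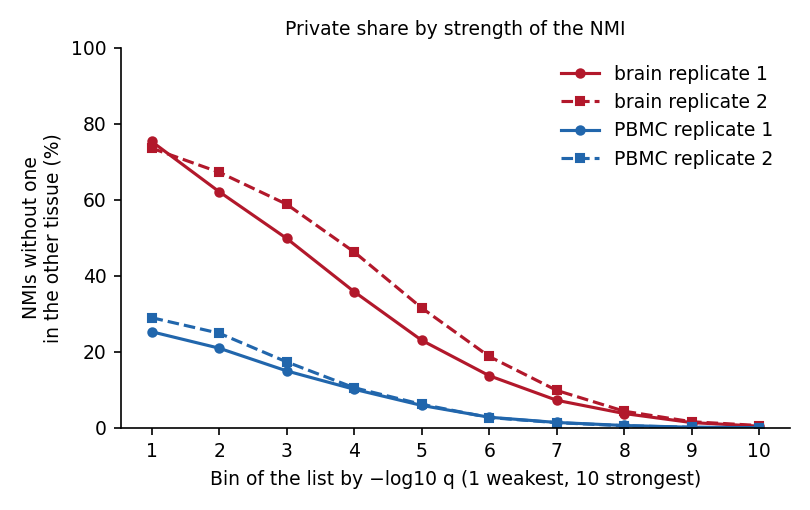
Percentage of NMIs without an NMI of the other tissue, by bin of the list ranked by −log10 q (1 weakest, 10 strongest), for the 2 brain and the 2 PBMC libraries. The share was 73.6% to 75.4% in the weakest bin of brain and below 1% in the strongest bin of all 4 libraries. With these deposited lists, of which the brain lists were the longer, brain lay above PBMC in each bin.

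NMIs that were strong in one tissue and absent from the other were rare. They were defined, after the data had been seen, as merged NMIs that were among the 50000 strongest of both replicates and overlapped no NMI in either deposited list of the other tissue. There were 846 strong brain-private and 102 strong PBMC-private NMIs, or 1.59% and 0.192% of the merged NMIs from lists of 50000. Their median widths were 655 bp in brain and 492 bp in PBMCs. The ratio was 8.29, compared with 6.42 for all private NMIs under the same absence rule and 4.01 without that rule. The unequal length of the lists in which absence was read applies to the strong NMIs as well.

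The longest private NMIs showed what such a difference looked like. The longest brain-private NMI absent from both PBMC lists lay at PIZI01000174v1:278131-282296 (4166 bp), with a fold enrichment of 4.96 and 5.13 in brain replicates 1 and 2. It also had an NMI in every muscle, sperm, day 1 and day 2 library. The next 2 lay on one scaffold, at PIZI01001168v1:12235-15891 (3657 bp) and PIZI01001168v1:8263-11712 (3450 bp). They were followed by PIZI01000031v1:11213652-11217042 (3391 bp, fold enrichment 16.3 and 19.5) and PIZI01000009v1:7399802-7402888 (3087 bp, fold enrichment 8.995 and 12.6). All 5 were present in the 8 libraries of the other tissues. The longest brain-private NMIs were thus NMIs that PBMCs lacked, rather than NMIs found in brain alone.

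Among PBMC-private NMIs absent from both brain lists, the longest lay at PIZI01000052v1:5338132-5340490 (2359 bp). Its fold enrichment was 52.4 and 28.95 in PBMC replicates 1 and 2, and it was present in both muscle and both sperm libraries, in 1 day 1 library and in no day 2 library. The NMI at PIZI01000100v1:768117-770363 (2247 bp) had a fold enrichment of 17.9 and 17.1 and was present in the 8 libraries of the other tissues. At PIZI01000062v1:1929548-1931454 (1907 bp), with a fold enrichment of 30.3 and 25.1, both muscle libraries lacked an NMI as well, whereas all sperm and embryo libraries had one. The remaining NMIs were at PIZI01000043v1:4191537-4192990 (1454 bp) and PIZI01008944v1:1001-2408 (1408 bp). Both were found in muscle and sperm. None of these 5 was particular to PBMCs.

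The longest shared NMIs were carried by PBMCs in more pieces than by brain. The NMI at PIZI01000019v1:6632335-6648251 (15917 bp) was 1 NMI in each brain library, against 9 and 7 NMIs in PBMC replicates 1 and 2. At PIZI01000015v1:3912085-3922116 (10032 bp), 1 NMI in each brain library stood against 6 in each PBMC library. At PIZI01000009v1:14345141-14355161 (10021 bp), 1 and 2 brain NMIs stood against 5 and 4 PBMC NMIs. These NMIs were chosen as the longest unions of both tissues. The widest single NMI was 15917 and 16279 bp in brain replicates 1 and 2, against 9381 and 6591 bp in PBMC replicates 1 and 2. No single PBMC NMI could therefore span any of them, and the larger number of PBMC pieces follows in part from the choice. Over all shared NMIs, 7326 joined 1 brain NMI to at least 2 PBMC NMIs, whereas 984 joined at least 2 brain NMIs to 1 PBMC NMI. The brain stretches were 1773 bp wide and the PBMC stretches 1194 bp in total (medians) where 1 brain NMI faced several PBMC NMIs. In the opposite arrangement, the brain stretches were 1008.5 bp in total and the PBMC stretches 1115.5 bp. A single stretch also spans the gaps between the pieces it faces, so these width orders follow in large part from the arrangement.

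In 84825 shared NMIs (90.8%), 1 brain stretch faced 1 PBMC stretch. The brain stretch was the wider one in 73.1% of these, with a median width of 587 bp in brain and 456 bp in PBMCs and a median ratio of 1.16. It was at least 2 times as wide in 8.44%, and the PBMC stretch was at least 2 times as wide in 0.771%. For 83755 NMIs, each of the 4 lists held exactly 1 NMI. Their median width was 624 and 722 bp in brain, against 467 and 524 bp in PBMCs. The replicates of brain differed among themselves, with a median width ratio of 0.916, and those of PBMCs likewise, with 0.926. Every brain library was nevertheless wider than every PBMC library, with median ratios from 1.10 to 1.35.

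The summits of these one-to-one NMIs, which were chosen for lying in the same merged NMI, were then compared. The median distance was 22 bp between the brain replicates, 19 bp between the PBMC replicates and 25 to 31 bp between a brain and a PBMC library. The ranks of the fold enrichments were less alike between the tissues. Spearman's rho across these 83755 NMIs was 0.844 for the brain replicates, 0.925 for the PBMC replicates and 0.619 to 0.753 between tissues. NMIs are not independent replicates, and the background of each list enters these values. Both brain replicates ranked an NMI at least 30 percentiles above both PBMC replicates in 3323 cases (3.97%), and the opposite held in 537 cases (0.641%). In the whole lists ranked by −log10 q, the median shared NMI lay at percentile 63.7 and 68.1 in brain replicates 1 and 2. In PBMC replicates 1 and 2 it lay at 57.2 and 58.5. These counts therefore do not show that more NMIs were stronger in brain, and the part of list length in them was not tested.

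Whether a private NMI also occurs elsewhere was read from the 8 libraries that took no part in the classes. Values are means of 2 libraries ± SD. In muscle, 61.0% ± 1.01 of brain-private, 50.9% ± 3.20 of PBMC-private and 94.7% ± 0.134 of shared NMIs overlapped an NMI. In sperm, the shares were 52.6% ± 5.65, 42.7% ± 3.44 and 84.5% ± 1.26, in the same order of classes. In day 1 embryos, they were 44.1% ± 1.21, 25.9% ± 0.353 and 77.3% ± 0.790. In day 2 embryos, which had the shortest lists, they were 26.2% ± 0.138, 15.1% ± 0.235 and 67.9% ± 0.470. In each of the 8 libraries, shared NMIs were the most often present and PBMC-private NMIs the least often. Many private NMIs were therefore private only within this pair of tissues. Presence required an overlap of only 1 bp, and the median widths were 314 bp for brain-private, 292 bp for PBMC-private and 662 bp for shared NMIs. Shared NMIs were also the stronger ones in their lists. The part of width and strength in the order of the classes was not tested.

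The muscle lists carried the same background as the PBMC lists up to a constant. The muscle libraries held 60.3% and 61.7% of the brain-private NMIs, against 53.2% and 48.7% of the PBMC-private NMIs. With equally long brain and PBMC lists, muscle held 72.9% ± 1.46 of brain-private and 58.8% ± 3.14 of PBMC-private NMIs. Among the strong private NMIs, muscle held 91.9% ± 0.251 of the brain and 52.0% ± 2.77 of the PBMC ones. For sperm these shares were 62.8% ± 0.752 and 60.3% ± 0.693, for day 1 embryos 66.0% ± 0.334 and 35.3% ± 1.39, and for day 2 embryos 62.6% ± 0.585 and 31.4% ± 2.77. The difference between the strong classes was thus small in sperm and larger in the other tissues. The muscle lists were also longer than the PBMC lists, and the part of list length and background in these shares was not tested.

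**Figure D4:**
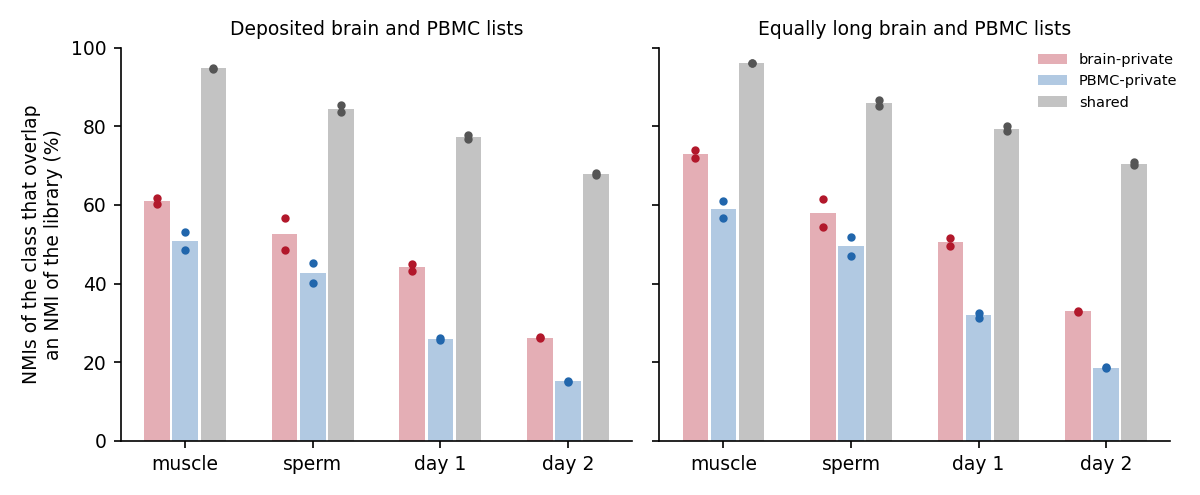
Percentage of brain-private, PBMC-private and shared NMIs that overlapped an NMI in muscle, sperm, day 1 and day 2 libraries, with the deposited (left) and equally long (right) brain and PBMC lists. Bars are means of 2 libraries and points the single libraries. Shared NMIs were highest and PBMC-private NMIs lowest throughout. With the deposited lists, the means ran from 94.7% of shared NMIs in muscle to 15.1% of PBMC-private NMIs in day 2 embryos.

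In both replicates of all 4 other tissues, 15.7% of brain-private, 6.2% of PBMC-private and 58.6% of shared NMIs were present. In no other tissue, by the same requirement for both replicates, were 28.4% of brain-private, 39.3% of PBMC-private and 3.38% of shared NMIs. NMIs found in muscle as the only other tissue made up 20.1% of brain-private and 20.1% of PBMC-private NMIs. Among the strong brain-private NMIs, 446 (52.7%) were present in all 4 other tissues and 42 (4.96%) in none. Among the strong PBMC-private NMIs, 14 (13.7%) were present in all 4 and 28 (27.5%) in none. The 52.7% of strong brain-private NMIs present in all 4 other tissues was below the 58.6% of all shared NMIs. The share among equally strong shared NMIs was not computed, so wide occurrence cannot be called particular to the strong brain-private class.

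Private NMIs lay next to each other along the scaffolds more often than their overall share. Of the brain-private NMIs, 31.3% were followed by another brain-private NMI on the scaffold, compared with 24.8% of all following NMIs. Of the PBMC-private NMIs, 13.5% were followed by another PBMC-private NMI, compared with 6.11% overall. With equally long lists, the values were 24.5% and 16.9% for brain-private NMIs, and 17.7% and 10.95% for PBMC-private NMIs. At 2 steps along the scaffold, the same-class share was 29.0% for brain-private and 9.19% for PBMC-private NMIs. At 20 steps it was 25.1% and 6.78%, close to the overall shares of 24.6% and 6.04%. The clustering was local and modest in extent.

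**Figure D5:**
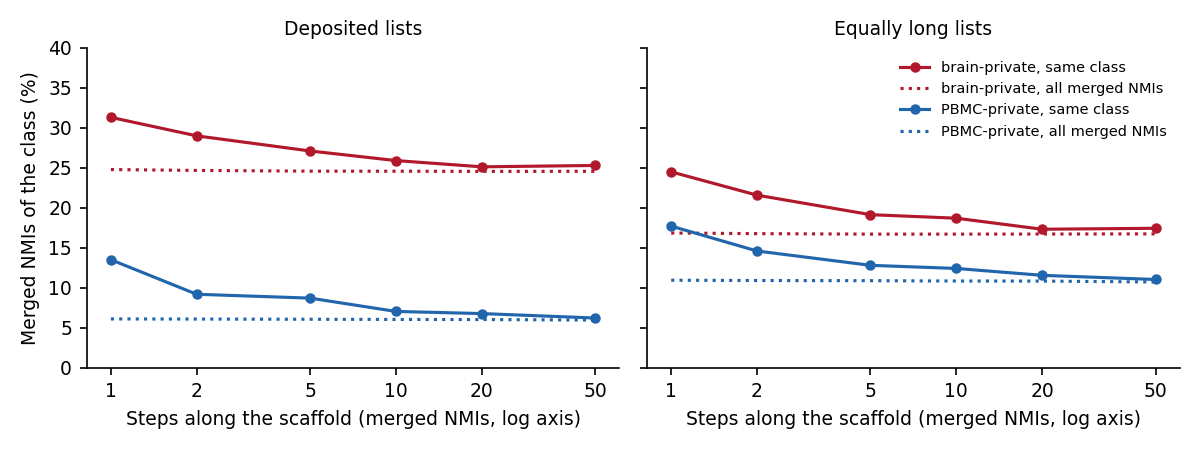
Percentage of merged NMIs of the same class at 1 to 50 steps along the scaffold from a brain-private or PBMC-private NMI (points and lines), and the overall percentage of that class at the same step (dotted), for deposited (left) and equally long (right) lists. The same-class share started at 31.3% for brain-private and 13.5% for PBMC-private NMIs with the deposited lists and approached the overall shares by 20 to 50 steps.

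Most private NMIs nevertheless stood alone. Runs of a single NMI held 50.8% of brain-private and 76.7% of PBMC-private NMIs. There were 349 runs of at least 5 brain-private NMIs, with 2141 NMIs in them, and 8 such runs of PBMC-private NMIs, with 51 NMIs. The median distance to the next NMI of the class was 12.5 kb for brain-private and 50.7 kb for PBMC-private NMIs. With equally long lists, 60.4% of brain-private and 70.05% of PBMC-private NMIs stood alone. There were then 125 and 26 runs of at least 5, and the median distances were 21.6 and 30.6 kb. All these values depend on class size, and with the deposited lists 24.9% of merged NMIs were brain-private and 6.21% PBMC-private. The part of class size in them was not tested.

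The longest runs differed in what the other tissues showed. A run of 17 brain-private NMIs at PIZI01000059v1:457489-522684 had 8 or 9 of them in the muscle libraries, but at most 2 in sperm and 1 in each embryo library. PBMC replicate 1 had 2 of the 17. Another run of 17, at PIZI01000064v1:3926284-3980451, had 6 and 7 in muscle and none in sperm or embryos. In contrast, all 16 NMIs of the run at PIZI01000001v1:11254957-11296669 were present in both muscle libraries, and 12 to 14 of them in sperm, with 8 or 9 in the day 1 and 8 in the day 2 libraries. PBMC replicate 1 had 1 of the 16. The longest PBMC-private run, of 9 NMIs at PIZI01000040v1:7768055-7794789, had none of its NMIs in either brain library, 7 to 9 in muscle, 7 or 8 in sperm and 5 to 7 in embryos. The runs at PIZI01000016v1:14349166-14418865 (8 NMIs) and PIZI01000001v1:18432430-18456683 (6 NMIs) were less complete, with 4 or 5 and 2 NMIs in the muscle libraries. Brain replicate 1 had 1 NMI of the run of 8, and brain replicate 2 had 2 NMIs of the run of 6. The latter was 1 of 4 PBMC-private runs of that length. The runs thus differed widely in how many of their NMIs the other tissues carried.

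Runs missing from one tissue were counted after the data had been seen. A run of at least 3 private NMIs absent from both lists of the other tissue was called a block if each of its NMIs was present in both muscle and both sperm libraries. Of 1322 such brain-private runs, 134 were blocks, with 480 NMIs. Of 47 such PBMC-private runs, 1 was a block, with 4 NMIs. That PBMCs lacked the NMIs of the brain-private blocks, and that muscle and sperm carried them, follows from the definition. Brain-private NMIs were also the larger class, with 24.9% of merged NMIs against 6.21% for PBMC-private NMIs. Absence was read in PBMC lists that were shorter than the brain lists. The part of class size and list length in these counts was not tested.

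The longest block lay at PIZI01000014v1:14581231-14601214 (20.0 kb). It held 11 NMIs of 212 to 984 bp, all present in both brain, both muscle and both sperm libraries and none in PBMCs, with 10 and 9 in the day 1 and 7 and 7 in the day 2 libraries. The fold enrichment in brain replicate 1 ran from 3.12 to 14.1, with a median of 6.20, and in brain replicate 2 from 3.67 to 11.7, with a median of 5.36. The NMI before the block was shared, with a fold enrichment of 17.1 and 17.5 in brain, against 31.8 and 23.2 in PBMCs. The NMI after it was shared as well, with 3.45 and 3.83 in brain, against 5.00 in each PBMC library. A called NMI on either side follows from the way a run ends, and these values give its strength only.

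A second block, at PIZI01000058v1:1476183-1490356 (14.2 kb), held 9 NMIs. They included one at PIZI01000058v1:1489909-1490356 with a fold enrichment of 28.0 and 27.4 in brain. The PBMC libraries had none of the 9. On either side, the next NMI was shared, with a fold enrichment in PBMCs of 5.95 and 4.18 before and 22.6 and 20.1 after the block.

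The third block held all merged NMIs of its scaffold. On PIZI01001168v1, brain replicates 1 and 2 had 8 and 9 NMIs, whereas neither PBMC library had any. Muscle had 9 and 10, sperm 8 and 7, day 1 embryos 7 and 8 and day 2 embryos 7 and 6. These are counts of NMIs in each list. The 8 merged NMIs spanned PIZI01001168v1:6428-24031 (17.6 kb) and were up to 3657 bp wide. All 8 overlapped an NMI in every muscle, sperm, day 1 and day 2 library. Whether PBMCs were methylated there or had no sequence at this place cannot be told apart from a list of NMIs.

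The only block of the opposite kind lay at PIZI01000032v1:4665032-4674982 (9.95 kb). It held 4 NMIs with a fold enrichment of 8.43 to 20.8 in PBMC replicate 1 and 5.62 to 18.1 in PBMC replicate 2, and none in brain. All 4 were present in muscle and sperm. The NMI before it was shared, and the NMI after it, at PIZI01000032v1:4677519-4677803, was brain-private.

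Scaffolds with NMIs in both replicates of one tissue and in neither replicate of the other numbered 502 for brain and 102 for PBMCs. Brain replicates 1 and 2 had NMIs on 4594 and 4941 scaffolds, against 4268 and 4136 in PBMC replicates 1 and 2. Fewer than 20 merged NMIs lay on 4464 scaffolds. The part of list length and of the size of the private classes in these counts was not tested. The one-tissue scaffolds mostly held few NMIs, with 617 and 710 in total in the brain replicates and 117 and 113 in the PBMC replicates. At least 3 NMIs in both replicates were found on 15 of the brain scaffolds and on 0 of the PBMC scaffolds. After PIZI01001168v1, the brain scaffolds with most NMIs were PIZI01004802v1 (7 and 7 NMIs) and PIZI01000751v1 (5 and 5). PIZI01004802v1 had 1 NMI in each muscle library and 5 in each sperm library. For PBMCs they were PIZI01000892v1 (2 and 4 NMIs), PIZI01001058v1 (3 and 2) and PIZI01003564v1 (2 and 2). Each of them had NMIs in at least 1 library of another tissue.

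Over larger distances, private NMIs were found across the whole assembly. In 824 windows of 1 Mb with at least 50 merged NMIs, the share of brain-private NMIs had a median of 24.7%, with 10.5% in the lowest and 52.9% in the highest window. The share of PBMC-private NMIs had a median of 5.71%, from 0% to 23.2%. PBMC-private NMIs outnumbered brain-private NMIs in 5 windows, and in 142 of 794 windows with equally long lists. The shares were computed again from the replicate 1 lists alone and from the replicate 2 lists alone. These have no BioCAP library in common but rest on largely the same backgrounds, as described above. Across 828 windows, Pearson's r between them was 0.826 for brain-private and 0.724 for PBMC-private NMIs, given as a description.

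The highest brain-private share was found at PIZI01000008v1:10000001-11000000, with 27 of 51 NMIs. It was 46.4% with the replicate 1 lists and 53.3% with the replicate 2 lists. PIZI01000029v1:2000001-3000000 (46 of 91) and PIZI01000046v1:1-1000000 (43 of 86) followed. The lowest shares were at PIZI01000019v1:5000001-6000000 (23 of 219), PIZI01000034v1:6000001-7000000 (16 of 144) and PIZI01000155v1:1-1000000 (12 of 106). The windows with high shares held fewer NMIs than these.

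For PBMC-private NMIs, the highest shares were at PIZI01000002v1:12000001-13000000 (13 of 56), PIZI01000034v1:8000001-9000000 (25 of 126) and PIZI01000027v1:13000001-14000000 (17 of 88). With equally long lists, they were 26.9%, 26.5% and 25.3%. No PBMC-private NMI was found at PIZI01000235v1:1-1000000 (54 merged NMIs), PIZI01000056v1:3000001-4000000 (115) and PIZI01000052v1:8000001-9000000 (54). Scaffold PIZI01000034v1 thus had a window among the lowest for brain-private NMIs and another among the highest for PBMC-private NMIs.

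Whole scaffolds differed less than windows. Among 82 scaffolds with at least 200 merged NMIs, the brain-private share ran from 19.9% on PIZI01000098v1 to 33.2% on PIZI01000078v1. The PBMC-private share ran from 3.31% on PIZI01000082v1 to 11.4% on PIZI01000071v1. Scaffolds with fewer than 20 merged NMIs had 28.8% brain-private and 7.82% PBMC-private NMIs, compared with 24.6% and 5.97% on the scaffolds with at least 200. Private NMIs were therefore not concentrated on a few scaffolds. On the mitochondrial genome, brain replicate 1 had 1 NMI of 323 bp, and the other brain library and both PBMC libraries had none.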

How the data were processed

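BioCAP reads were, per the labels and the study's methods, trimmed with Trimmomatic, aligned to petMar3 with Bowtie2, cleared of duplicates with Picard, and peaks were called in each library alone with MACS2. Caller options and controls were not given in the sources used here. For each NMI, the authors deposited the fold enrichment (the ratio of the summit to its local background), the −log10 p-value and −log10 q-value, a whole-number score that was not used, and the summit. Depth is not in the lists. In the study's mapping table, brain replicate 2 was the deepest of the 4 libraries. An NMI missing from a list was treated as not called.

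Intervals were processed in Python 3.11.15 with NumPy 2.4.6, SciPy 1.17.1 and pandas 2.3.3. Positions count from 1. Stretches were joined if they overlapped or touched, and lists were ranked by −log10 q, then fold enrichment, then position. Summit pileup and background were solved from fold enrichment = (pileup + 1)/(background + 1) and the Poisson p-value. Functions were tested on simulated data.

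The members, lists and rules were chosen with earlier results of these data known. The NMIs, runs and windows named are the 5 longest private NMIs absent from both libraries of the other tissue, the 3 longest shared NMIs, the 3 longest runs per private class, the 3 windows and the scaffolds with the largest and smallest shares, and the 3 scaffolds with most NMIs in one tissue only. The strong private NMIs and the blocks were added after seeing the data. The study describes the replicates as biological. No genome of petMar3 was used here, so sequence, CpG density and genes were not analysed. The alternatives were other list lengths, equal bases, thresholds on −log10 q and fold enrichment, other replicate, overlap, width and merging rules, each library left out, and windows of 250 kb.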

Additional observations from a re-analysis of the deposited data

How the results depend on the processing

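The number of shared NMIs was within 1.5 times of 93387 except with 50000 NMIs per library (35661, also when private NMIs absent from both deposited lists were required) and with equal bases (50713). Brain-private NMIs numbered 20763 with equally long lists, 9446 with 50000 NMIs, 2868 with equal bases, 19535 at a minimum −log10 q of 10, and, in settings chosen after seeing the data, 14798 with a fold enrichment of 5 or more, 15322 with equally long lists and 846 with 50000 NMIs when absent from both deposited lists of the other tissue. PBMC-private NMIs numbered 13526 with equally long lists, 39030 with equal bases, 3991 when absent from both brain lists, 3942 and 102 in the 2 combined settings, and 16366 with a fold enrichment of 5 or more. The ratio of brain-private to PBMC-private NMIs was reversed with equal bases (0.0735) and with a fold enrichment of 5 or more (0.904), and was 1.54 with equally long lists, 1.17 with 50000 NMIs, 1.77 at a minimum −log10 q of 10, 6.42 when absent from both lists and 8.29 for strong NMIs. Equal bases keep fewer brain NMIs by construction, and fold enrichments rest on the unequal backgrounds of the lists; for the other settings the cause was not tested.

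The same-class neighbour share of brain-private NMIs was 24.5% with equally long lists, 20.8% with 50000 NMIs, 8.31% with equal bases, 24.9% at that minimum −log10 q, 21.1% with a fold enrichment of 5 or more, and 23.8% and 7.61% in the combined settings. That of PBMC-private NMIs was 17.7%, 20.6%, 46.2%, 16.0% and 21.4% in the first 5 of these settings, 11.8% when absent from both lists and 2.35% for strong NMIs. Where absence from both lists was required, private NMIs that failed it were removed before the next NMI was taken. With them kept in place, the last 2 PBMC-private values were 10.9% and 1.16%. The brain-private values in the combined settings were then 21.8% and 6.28%. In 17 of 17 settings, both shares lay above the overall share of the class, by 3.43 to 9.64 percentage points for brain-private and 2.11 to 9.75 for PBMC-private NMIs. The share of brain-private NMIs found in muscle was 72.9% with equally long lists, 59.3% when absent from both lists, and 71.6% and 91.9% in the combined settings. That of PBMC-private NMIs was 58.8%, 42.0% and, with equally long lists and absence from both, 41.9%.

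With each library left out in turn, shared NMIs ran from 92901 to 97988, brain-private NMIs from 28362 to 48060, PBMC-private NMIs from 5237 to 12206 and their ratio from 2.32 to 9.18, both ends being set by leaving out PBMC replicate 1 and brain replicate 1. The Jaccard index ran from 0.554 to 0.611, the same-class neighbour share of brain-private NMIs from 28.7% to 37.4% and that of PBMC-private NMIs from 11.1% to 17.4%. Windows of 250 kb gave medians of 24% and 5.13%. No paired analysis was possible because the comparisons are counts of regions with no fitted test and nothing in the labels says that a replicate number joins a brain and a PBMC library.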

Other observations

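Among the lists of the other tissues, only those of muscle carried the background of the PBMC lists. Between PBMC lists and sperm or embryo lists, only 2.93% to 8.07% of the background ratios took one of their 2 commonest values. The scale factor solved from the lists was 0.411 and 0.381 in muscle replicates 1 and 2 and 1 in the sperm and embryo libraries, and the median local background was 3.76 and 3.62 in muscle. The 2 PBMC lists and the 2 muscle lists therefore formed one set by this measure. With a scale factor 3% below its own, only 0.536% to 1.67% of the NMIs in the 4 brain and PBMC lists gave a solution.

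In 93 of 2506 windows of 250 kb, PBMC-private NMIs outnumbered brain-private NMIs, and the brain-private share reached 70% in the highest of these windows. Runs of exactly 2 numbered 4371 for brain-private and 728 for PBMC-private NMIs, in classes of 33757 and 8419 NMIs.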
